A study of Mus musculus with 5 samples.

Results

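The LIM homeobox genes examined here were Lhx1, Lhx2, Lhx3, Lhx4, Lhx5, Lhx6, Lhx8, Lhx9, Lmx1a and Lmx1b, 10 of the 55536 genes in the GENCODE M21 annotation of GRCm38. They were taken by symbol, and each was found once in that annotation. H3K27me3, trimethylation of lysine 27 on histone H3, was measured by ChIP-seq in dermal fibroblasts of wild-type (WT) mouse skin. The labels give 2 libraries at embryonic day 14 (E14) and 2 at embryonic day 17 (E17), and an input library that has no peak list among the files analysed here. The study's methods name these stages E14.5 and E18.5, and the names on the labels are used here. The labels name no transgene or treatment for any library, and both groups came from dermal preparations that were expanded in culture before fixation, so the peaks describe cultured cells. The number of embryos behind a library is not given, so the spread between libraries of a stage may be technical.

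LIM-homeodomain proteins carry a pair of LIM domains, zinc-binding modules that contact other proteins, beside a DNA-binding homeodomain. They act with the LIM-domain-binding adaptors Ldb1 and Ldb2, and they set cell identity in the nervous system, pituitary, kidney, gonad, limb and eye. H3K27me3 is laid down by Polycomb repressive complex 2 and is found over repressed developmental genes, where it often forms domains that spread from CpG-rich start sites. Mammalian LIM-homeodomain genes fall into paralogue pairs, and the results below are ordered by these pairs.

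For each peak list, the start-site coverage of a gene is the length under peaks within 3000 bp of any of its annotated start sites. Gene-body coverage is the length under peaks between the first and last base of the gene. The widest start-site peak is the widest peak that touches the start-site windows by at least 1 bp. The lists hold no read counts, so the depth of a library cannot be read from them. The study's methods describe bringing E18.5 libraries to the read depth of its other samples, but it is unclear whether the lists used here were made that way. A stretch without a peak may still carry signal under the threshold of its list. Peaks numbered 21546 and 16574 in the E14 lists and 10429 and 7107 in the E17 lists, covering 52.8, 32.1, 20.0 and 14.3 Mb, so every comparison of the stages compares longer with shorter lists. The 8 dermal fibroblast genes examined (Col1a1, Col1a2, Col3a1, Pdgfra, Dcn, Lum, Twist2 and Prrx1) had no start-site peak in any list. Among markers of other cell types, Epcam, Cdh1, Sox10 and Myod1 had one in all 4 lists, and Krt5, Krt14, Pecam1, Cdh5, Dct and Myog had none. With 2 libraries against 2, the exact permutation test has 3 splits and a smallest two-sided p of 0.333, so no single difference between the stages can pass 0.05.

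The promoters of these genes were mostly rich in CpG dinucleotides. RefSeq promoters on GRCm38.p6 were matched for 9 of the 10 genes, all but Lhx5, giving 13 promoters of 250 bases before the start. Their median GC content was 62.0%, against 52.4% for all 32851 promoters of the table, and their median ratio of observed to expected CpG was 0.643 against 0.374. The range was wide, from 0.223 at Lhx9 to 0.991 at Lhx1. The runs printed here, free of annotated exons and read 5′ to 3′ on the strand of the gene with each CpG in capitals, show a CpG-rich promoter inside peaks of all 4 lists (Lhx1, chr11:84525536-84525659, minus strand), a CpG-rich promoter that lay in a gap between peaks in 3 of 4 lists (Lhx2, chr2:38339031-38339280, plus strand), the promoter of the outermost start of a gene marked at all its starts (Lhx6, chr2:36105409-36105658, minus strand) and a promoter with few CpG that was marked in all 4 lists (Lhx8, chr3:154330660-154330810, minus strand).
Lhx1: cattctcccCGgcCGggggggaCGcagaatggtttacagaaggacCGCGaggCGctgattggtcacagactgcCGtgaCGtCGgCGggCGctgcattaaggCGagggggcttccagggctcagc
Lhx2: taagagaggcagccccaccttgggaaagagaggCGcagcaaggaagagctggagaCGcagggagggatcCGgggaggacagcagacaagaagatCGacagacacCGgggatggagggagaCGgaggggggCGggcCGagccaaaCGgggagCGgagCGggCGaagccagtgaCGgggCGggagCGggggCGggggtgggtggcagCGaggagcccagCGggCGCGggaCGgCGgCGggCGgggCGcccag
Lhx6: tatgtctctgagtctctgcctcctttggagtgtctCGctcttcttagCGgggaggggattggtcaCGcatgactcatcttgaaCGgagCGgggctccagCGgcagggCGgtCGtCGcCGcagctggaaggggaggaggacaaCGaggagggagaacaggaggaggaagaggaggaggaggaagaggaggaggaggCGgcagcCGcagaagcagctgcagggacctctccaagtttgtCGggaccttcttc
Lhx8: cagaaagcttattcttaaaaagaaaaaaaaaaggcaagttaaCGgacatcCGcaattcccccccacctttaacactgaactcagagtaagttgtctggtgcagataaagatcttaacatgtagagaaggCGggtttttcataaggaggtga
These runs hold 12 CpG in 124 bases at Lhx1, 25 in 250 bases at Lhx2, 14 in 250 bases at Lhx6 and 3 in 151 bases at Lhx8. The ratio of observed to expected CpG was 0.506 in the Lhx8 run, above the median of all promoters. Over the full 250 bases of that promoter it was 0.309, below that median. The motif TAATTA, a core that homeodomains bind and that reads the same on both strands, was in 0 of the 13 promoters and in 4.84% of all promoters of the same length.

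All 10 genes had a start-site peak in all 4 lists. This was the case for 6.97% of all annotated genes and for 12.0% of the 22028 protein-coding genes. The 10 genes have 42 annotated start sites, of which 40 and 38 lay inside a peak in the E14 lists and 39 and 38 in the E17 lists. The widest start-site peak had a median width over the 10 genes of 20.6 and 18.3 kb in the E14 lists and of 17.5 and 14.9 kb in the E17 lists. Over all genes with a start-site peak in the same list, the medians were 3.14, 2.47, 2.27 and 2.12 kb. In 7 of the 10 genes, all but Lhx9, Lhx8 and Lmx1a, the widest peak reached at least 10000 bp in every list, against 10.5% of the 3871 genes with a start-site peak in all 4 lists. The strongest start-site peak of each gene lay high in its own list. The median percentile by fold enrichment was 99.1 and 98.6 in the E14 lists and 97.5 and 95.7 in the E17 lists, where the medians over all marked genes were 80.8, 80.5, 78.1 and 73.4.

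**Figure D1:**
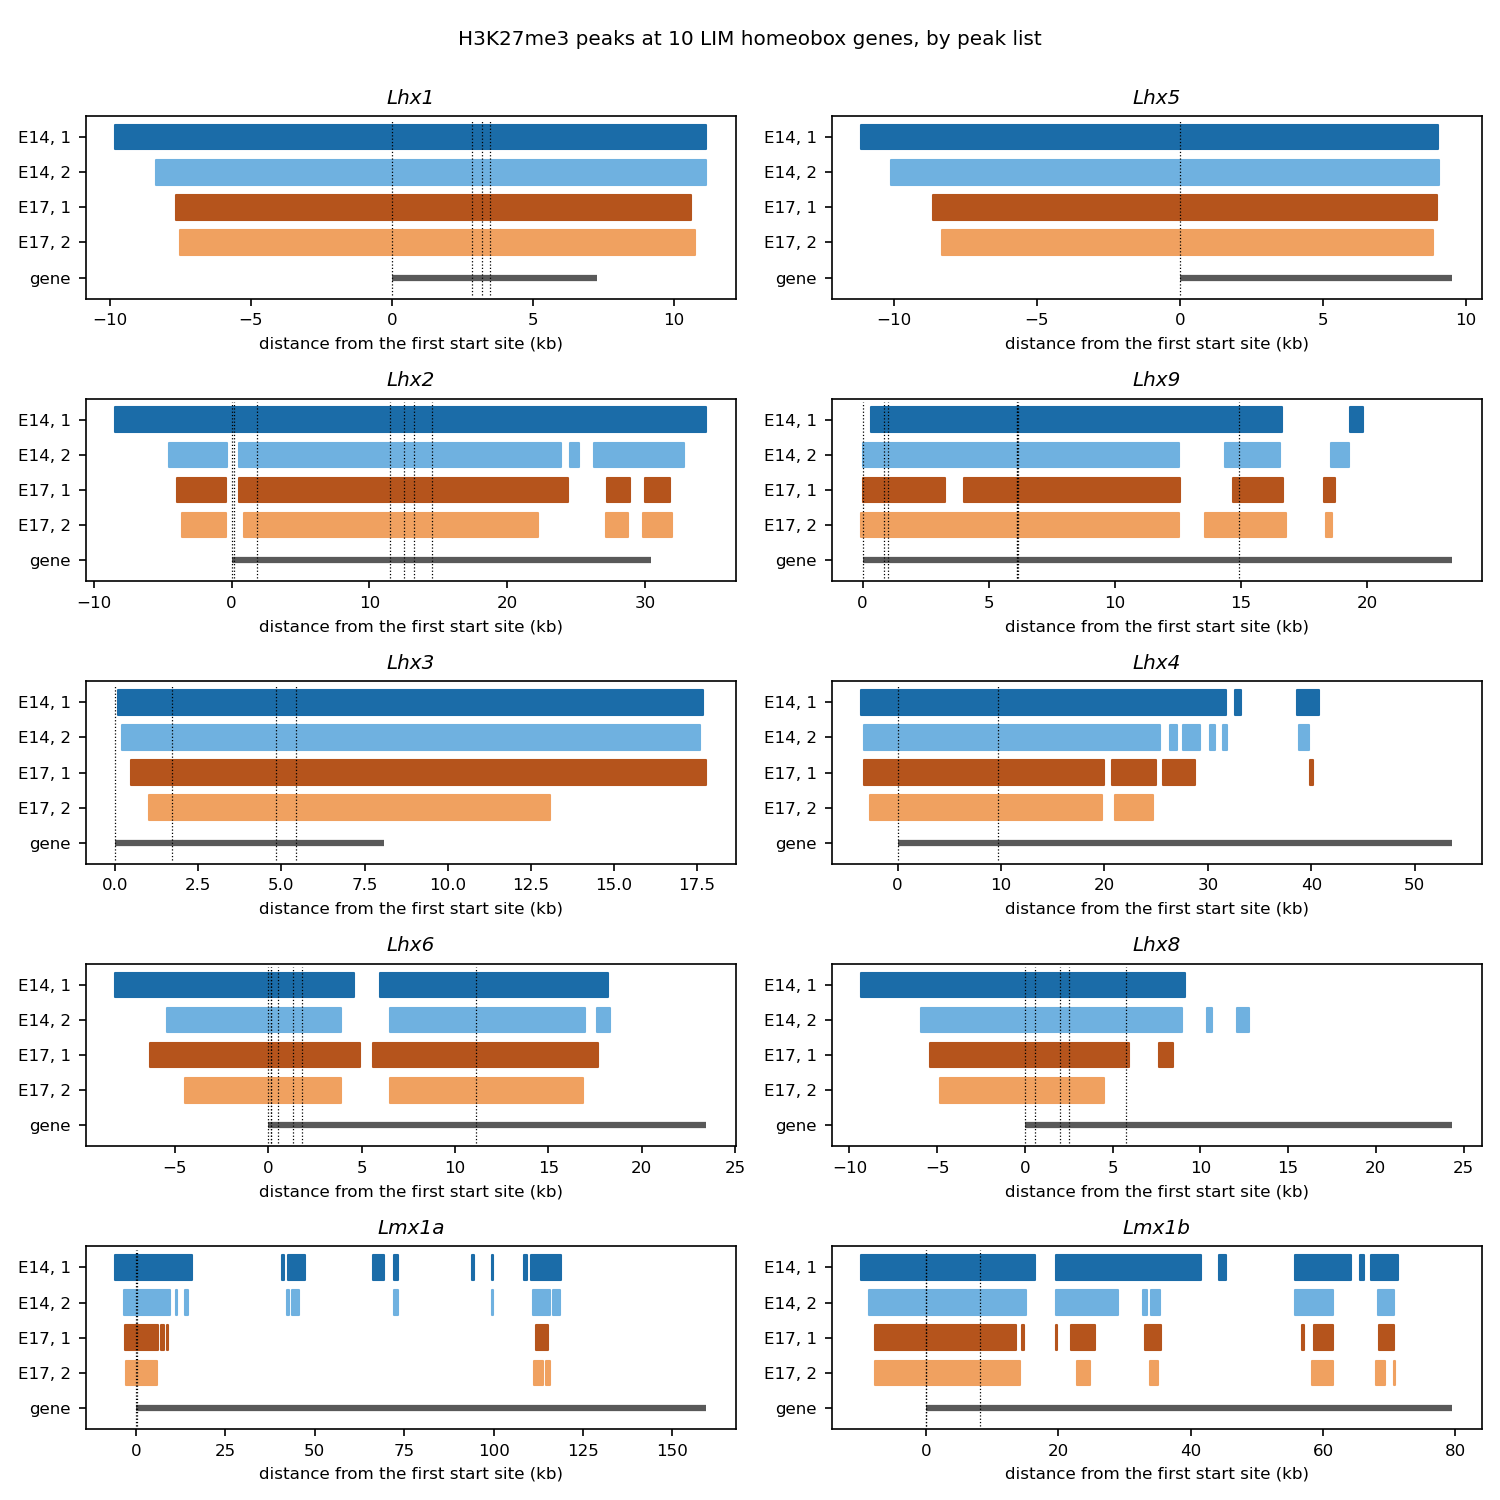
H3K27me3 peaks (bars) at the 10 genes in each of the 4 peak lists, plotted as distance in kb from the first start site in the direction of transcription, with the gene as a grey line and start sites as dotted lines. Peaks cover a start site of every gene in every list, and the intronic peaks of Lmx1a and Lmx1b are shorter or fewer in the E17 lists.

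Lhx1 (chr11:84518284-84525535, minus strand) and Lhx5 (chr5:120431699-120441223, plus strand) were each covered by a single unbroken peak in every list. Lhx1 is needed for head and kidney development, and both genes act in neurons of the brain and spinal cord. At Lhx1, all 7252 bp of the gene and all 9469 bp of its start-site windows were under the peak in all 4 lists. Its strongest peak ranked 3 and 6 from the top by fold enrichment in the E14 lists and 23 and 29 in the E17 lists, nearer the top than any other of the 10 genes in every list. The Lhx1 peak was 20939 and 19523 bp wide in the E14 lists and 18269 and 18255 bp wide in the E17 lists. The E17 widths lay below both E14 widths, at 18.3 ± 0.0099 kb against 20.2 ± 1.0 kb (mean ± SD, n = 2, exact permutation p = 0.333). The Lhx5 peak was 20162, 19152, 17620 and 17134 bp wide in the same order of lists. At both genes most of the shortening was upstream: the peak reached 9.81, 8.38, 7.66 and 7.52 kb before the first start site of Lhx1, and 11.1, 10.1, 8.64 and 8.31 kb before the start site of Lhx5. The downstream edge of the Lhx5 peak stayed between 8.83 and 9.04 kb after the start site in all lists, just short of the gene's end.

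Lhx2 (chr2:38339281-38369733, plus strand) and Lhx9 (chr1:138825186-138848577, minus strand) had peak edges close to their first start sites. Lhx2 is required for eye and forebrain development and is known from hair follicle progenitors, and Lhx9 is required for the gonad. In replicate 1 of E14 a single peak of 42887 bp covered all of Lhx2. In the other 3 lists the peak was broken around the first 2 start sites of Lhx2, which lie 207 bp apart: relative to the first start, the gap ran from -346 to 506 bp in replicate 2 of E14, from -386 to 508 bp in replicate 1 of E17, and from -393 to 936 bp in replicate 2 of E17. The promoter printed above lay inside this gap in these 3 lists, while the 5 start sites further into the gene were inside peaks in all 4. Start-site coverage of Lhx2 was 16856, 16005, 15963 and 15528 bp, and with peaks within 3000 bp of each other merged this difference was 0 bp. Gene-body coverage of Lhx2 was 30453 and 28164 bp in the E14 lists and 26094 and 23520 bp in the E17 lists, and the stages did not overlap (29.3 ± 1.62 against 24.8 ± 1.82 kb, mean ± SD, n = 2, exact permutation p = 0.333), although they did with peaks merged in the same way.

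At Lhx9 the stages overlapped in start-site coverage (13539, 11958, 11052 and 13050 bp) and in gene-body coverage (16814, 15445, 14251 and 16037 bp). With peaks of −log10 q of at least 3 both measures were shorter in both E17 lists, and the start-site difference of the means, E17 minus E14, was -2301 bp in place of -697.5 bp. With a −log10 q of at least 5 it was -2207.5 bp, and Lhx9 was again not among the genes without overlap. Its upstream edge lay 343 and 25 bp after the first start site in the E14 lists, and 2 and 54 bp before it in the E17 lists. The first start site was therefore inside a peak in both E17 lists and in neither E14 list, by margins of 2 to 343 bp. Lhx9 was the only one of the 10 genes with an upstream reach longer in both E17 lists, which was so for 0.723% of the 3871 genes. It was also the only one with bases covered in both E17 lists and neither E14 list, 269 bp in all.

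Lhx3 (chr2:26200212-26208289, minus strand) and Lhx4 (chr1:155698031-155751684, minus strand) act in pituitary development and in motor neurons. A single peak covered most of Lhx3 and ran beyond its end, but its first start site was outside the peak in all 4 lists. The upstream edge lay 88 and 211 bp after that start in the E14 lists and 486 and 1014 bp after it in the E17 lists, so the E17 edges were further into the gene. Start-site coverage of Lhx3 was 8336 and 8213 bp at E14 and 7938 and 7410 bp at E17. At Lhx4 both start sites, 9657 bp apart, were under a single peak in every list. That peak was 35241 and 28646 bp wide at E14 and 23168 and 22446 bp wide at E17 (31.9 ± 4.66 against 22.8 ± 0.511 kb, mean ± SD, n = 2, exact permutation p = 0.333). The shorter E17 peaks of Lhx4 ended earlier in the gene, 19.9 and 19.8 kb after the first start against 31.7 and 25.4 kb. The upstream edges lay 3.52, 3.26, 3.25 and 2.64 kb before that start. Separate peaks followed further into the gene in every list. In replicate 1 of E17 the nearest ran from 20777 to 24949 bp and from 25623 to 28739 bp after the first start. In replicate 2 of E17 the nearest ran from 21048 to 24646 bp, and in replicate 2 of E14 from 26331 to 26988 bp. With peaks within 3000 bp merged, the widest peak of Lhx4 was still narrower in both E17 lists.

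Lhx6 (chr2:36081953-36105408, minus strand) and Lhx8 (chr3:154306294-154330659, minus strand) are expressed together in the ventral forebrain and in the mesenchyme of the developing jaw and teeth. At Lhx6 all 7 start sites were inside peaks in every list, and the stages overlapped in start-site coverage (13613, 12909, 13818 and 12886 bp), gene-body coverage (16796, 14992, 16960 and 14175 bp) and widest peak (12806, 10434, 12051 and 10290 bp). The widest peak of Lhx6 covered the first start in replicate 1 of E14 and lay further into the gene in the rest. The peak over the first start was 12806, 9355, 11228 and 8327 bp wide, and the inner peak 12184, 10434, 12051 and 10290 bp. Each overlapped between the stages. At Lhx8 the start-site windows were covered to their full 11777 bp in both E14 lists, and to 9762 and 7501 bp in the E17 lists. Of the 10 genes, Lhx8 had the largest relative difference in start-site coverage between the stages: the E17 mean was 73.3% of the E14 mean (exact permutation p = 0.333). Its gene-body coverage was 9102 and 9886 bp at E14 and 6762 and 4501 bp at E17. The Lhx8 start site furthest into the gene, 5776 bp after the first, fell outside the peak in replicate 2 of E17. With start sites of protein-coding transcripts only, Lhx8 was not among the genes with shorter start-site coverage in both E17 lists. Its difference of the means, E17 minus E14, was then -262.5 bp in place of -3145.5 bp, beside -685 bp at Lhx2 and -600.5 bp at Lhx3.

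Lmx1a (chr1:167689237-167848741, plus strand) and Lmx1b (chr2:33560965-33640511, minus strand) are the longest genes of the set. Lmx1a acts in the roof plate of the neural tube and, with Lmx1b, in midbrain dopamine neurons, and Lmx1b gives the limb mesenchyme its dorsal identity. Their start sites were covered alike at both stages. At Lmx1b the start-site windows were covered to their full 12033 bp in all 4 lists, and at Lmx1a the coverage was 6321, 6321, 6321 and 6148 bp. A window that is full or nearly full can show little difference. The upstream reach was shorter in both E17 lists at both genes. Its mean was 2.98 kb at E17 against 4.62 kb at E14 at Lmx1a, and 7.71 against 9.23 kb at Lmx1b. The gene bodies differed as well. Gene-body coverage of Lmx1a was 35020 and 20752 bp in the E14 lists and 10878 and 9485 bp in the E17 lists, so the E17 mean was 36.5% of the E14 mean, the lowest share of the 10 genes. At Lmx1b it was 52582 and 34604 bp at E14 and 25162 and 22054 bp at E17, or 54.2% (exact permutation p = 0.333 for each gene). Over all 5895 genes with a body peak in both E14 lists, the median share was 38.5%, with quartiles of 4.75 and 68.3%. The E14 libraries also differed widely from each other at Lmx1a and Lmx1b. A distal intronic stretch of Lmx1a, beginning between 110414 and 111783 bp after the first start site, was under peaks in every list, the widest being 8295, 4720, 3520 and 2518 bp.

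**Figure D2:**
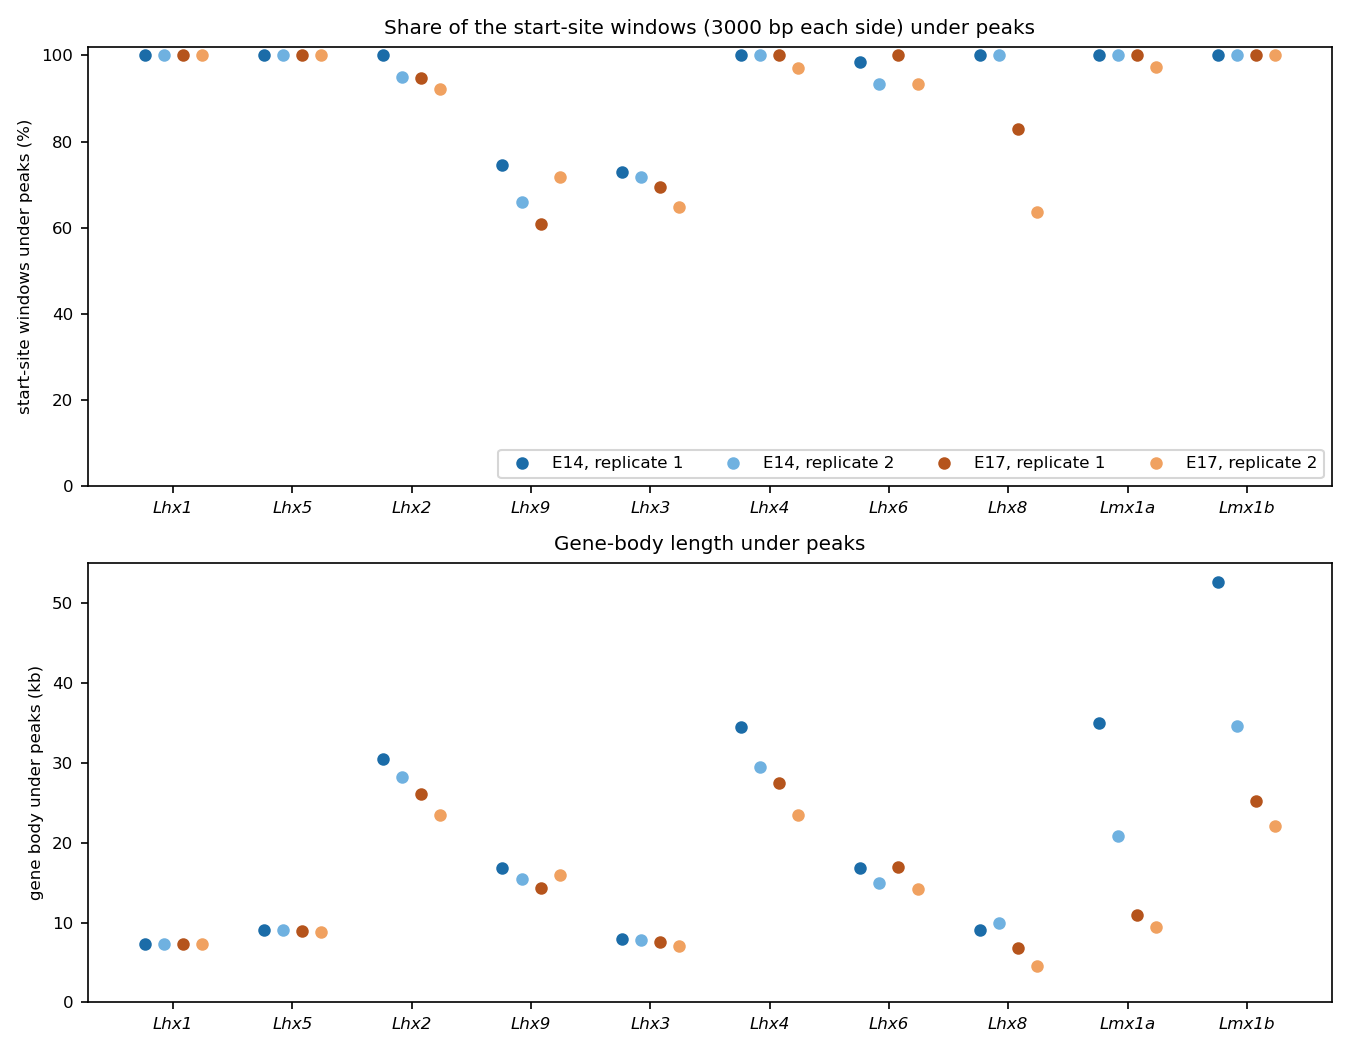
Share of the start-site windows under peaks in percent (top) and gene-body length under peaks in kb (bottom), one dot per gene and peak list. The windows are near or at 100% in most genes and lists, while gene-body coverage of Lhx2, Lhx4, Lmx1a and Lmx1b is lower in both E17 lists than in both E14 lists.

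Over the set, 3 genes (Lhx2, Lhx3 and Lhx8) had shorter start-site coverage in both E17 lists than in both E14 lists, 0 had longer coverage and 7 overlapped. Longer coverage in both E17 lists was found in 0.694% of the 9083 genes with a start-site peak in at least 1 list. Of those genes 58.1% were shorter, and of the 3871 genes with one in all 4 lists, 74.0% were. A window that is full in every list cannot show a difference, and Lhx1, Lhx5 and Lmx1b were full in all 4, against 6.79% of the 3871 genes. Without replicate 1 of E17 the count was 6, with Lhx4, Lhx6 and Lmx1a added, and with windows of 5000 bp it was 5, with Lhx4 and Lmx1a added. The E17 mean of start-site coverage was a median of 98.6% of the E14 mean over the 10 genes (range 73.3 to 100.7%). Over the 6441 genes with a start-site peak in both E14 lists the median was 39.9%, with quartiles of 0.0 and 70.5%. Of the 6441 genes, 25.1% had no start-site peak in either E17 list and count as 0%, while the 10 genes had one in all 4 lists. The 10 genes and the 6441 genes also differ in peak width, as given above. The part of either difference in these shares was not tested.

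Gene-body coverage was shorter in both E17 lists in 7 genes (Lhx5, Lhx2, Lhx3, Lhx4, Lhx8, Lmx1a and Lmx1b) and longer in 0. Of the 8058 genes with a body peak in at least 1 list, 57.1% were shorter and 0.707% longer. All 10 genes had a body peak in every list, and the share over genes marked in that way was not computed. Lhx4 was not among the shorter genes with lists cut to equal numbers of peaks, to equal covered length or to peaks of at least 1000 bp. With peaks within 3000 bp merged, Lhx2 was not among them and Lhx9 and Lhx6 were. The widest start-site peak was narrower in both E17 lists in 7 genes (Lhx1, Lhx5, Lhx3, Lhx4, Lhx8, Lmx1a and Lmx1b), against 80.9% of the 3871 genes, and the upstream reach was shorter in 8, against 74.1%. The downstream reach was shorter in 6, against 73.7%, and longer only at Lhx9, against 0.930%. These shares of the 10 genes lie near the background, so shorter peaks in the E17 lists are not a result about these genes. What remained of the widest peak was a median of 78.7% over the 10 genes, from 52.3% at Lmx1a to 96.1% at Lhx6, and 54.5% over the 3871 genes. At Lhx6 the widest peak was not the same one in every list.

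The fold enrichment of MACS2 can be compared only within a list, so ranks were used. By percentile, 9 of the 10 genes, all but Lhx9, stood lower in both E17 lists, against 73.3% of the 3871 genes, and 0 stood higher, against 1.70%. The lists differ in length, and the count depended on it. By position from the top, a measure chosen after seeing the data, 4 genes stood further down in both E17 lists (Lhx1, Lhx5, Lhx2 and Lhx6, against 33.2%), 2 stood nearer the top (Lhx8 and Lmx1a, against 16.5%) and 4 overlapped. With every list cut to the number of peaks in the shortest list, the same 4 genes had the lower percentile. With every list cut to the covered length of the shortest, Lhx1 alone did. In lists of equal number the percentile is the position on another scale, so the cut to equal numbers is not a separate check. Lhx8 stood at positions 201, 155, 114 and 117, and Lmx1a at 322, 251, 231 and 120, although their peaks were narrower at E17.

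**Figure D3:**
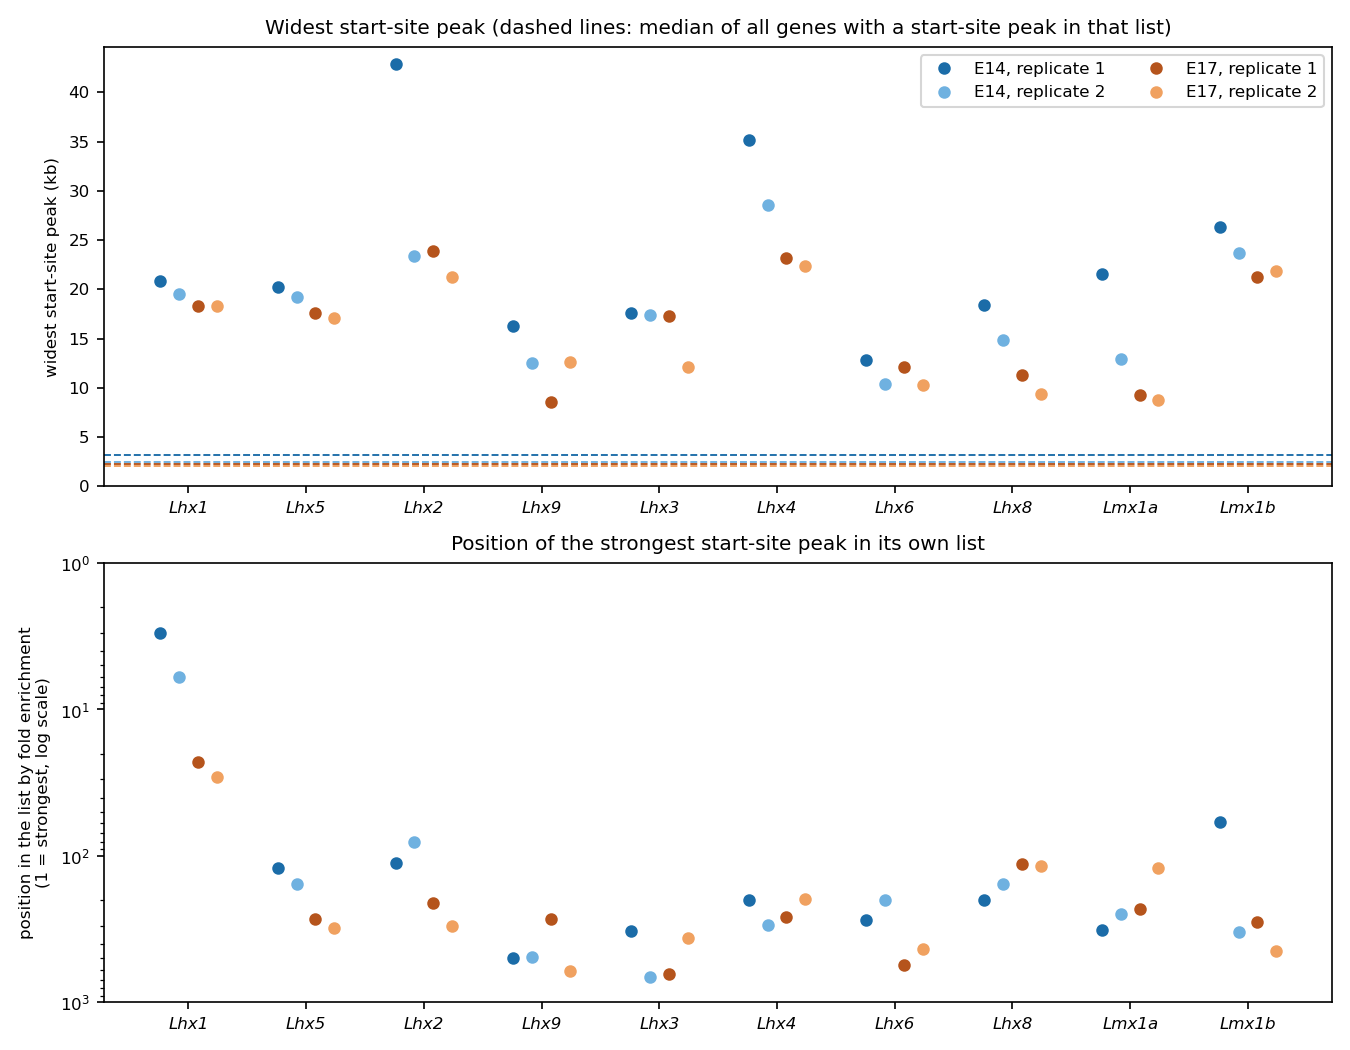
Widest start-site peak in kb (top) and position of the strongest start-site peak in its own list by fold enrichment (bottom, log scale, 1 is the strongest), one dot per gene and list. Every dot in the top panel lies above the dashed medians of 2.12 to 3.14 kb for all marked genes, and Lhx1 holds positions 3, 6, 23 and 29.

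Base by base, over the start-site windows and bodies of the 10 genes, 198.9 kb lay under peaks in both E14 lists. Of this length 77.4% was under peaks in all 4 lists, and 13.3% (26.4 kb) was under peaks in neither E17 list. Genome-wide, 28.3 Mb lay under peaks in both E14 lists, of which 41.9% was covered in all 4 lists and 36.5% in neither E17 list. The genome-wide values count peaks at any position, also far from genes, so these shares are not like for like with those of the 10 genes. The 26.4 kb was 97.4% intronic and came mostly from Lmx1b (8.83 kb), Lmx1a (8.58 kb), Lhx4 (3.48 kb), Lhx2 (2.44 kb) and Lhx8 (2.21 kb). Lhx1 and Lhx9 contributed none. Bases outside the start-site windows and gene bodies were not counted. The upstream shortening of the Lhx1 and Lhx5 peaks therefore lies outside these values, and the intronic share holds only for the region counted. Of the bases covered in all 4 lists, 71.8% were intronic and 15.2% lay outside the gene.

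The stretches covered at E14 only held fewer CpG. Over the 10 genes, stretches under peaks in all 4 lists held 2.93 CpG per 100 bases, and stretches under peaks in both E14 lists and neither E17 list held 1.33. At Lmx1b the values were 3.34 and 0.963, at Lmx1a 3.01 and 1.4, and at Lhx8 4.04 and 1.45. At Lhx6, where the E14-only stretch was 506 bp, they were 2.61 and 2.57. The genome-wide values were 2.93 and 1.56, so the same direction held over all peaks. The E14-only stretches of the 10 genes had a GC content of 49.1% against 51.5%, and the part of distance from the start sites in these values was not tested.

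**Figure D4:**
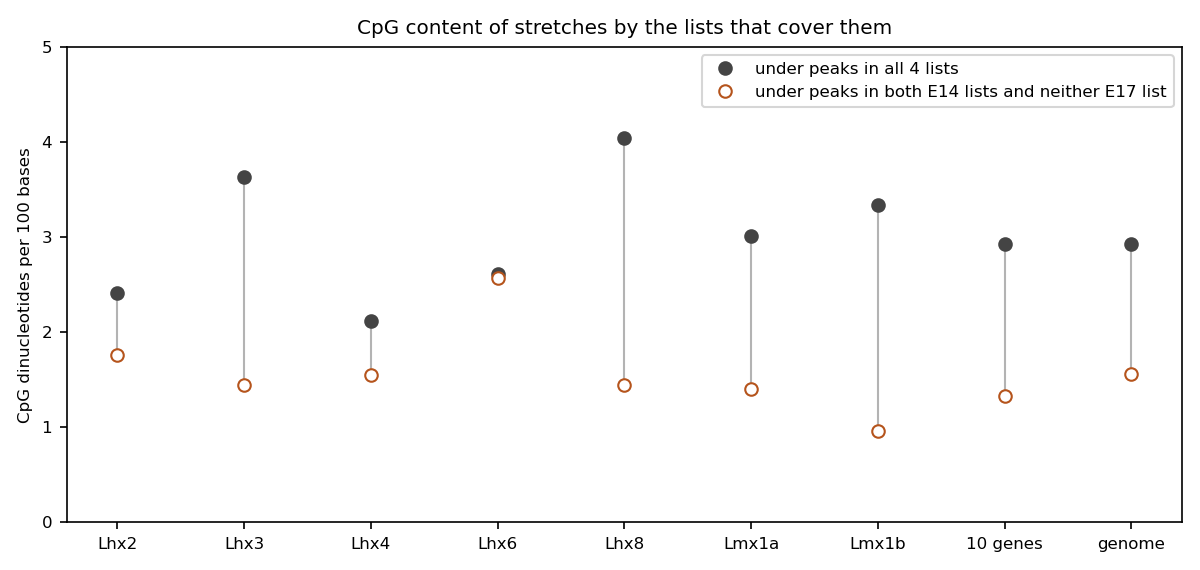
CpG dinucleotides per 100 bases in stretches under peaks in all 4 lists (filled) and in stretches under peaks in both E14 lists and neither E17 list (open), for the 7 genes with at least 200 bp of the latter, the 10 genes together and the genome. The open circle lies below the filled one in every column, by the least at Lhx6 (2.57 against 2.61).

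The other LIM-homeodomain genes, Isl1 and Isl2, also had a start-site peak in all 4 lists. Isl1, needed for motor neurons, heart progenitors and the pancreas, had a widest start-site peak of 29.0, 26.8, 23.6 and 14.5 kb. Isl2, its paralogue in motor neurons, had one of 13.6, 13.3, 12.7 and 11.7 kb and stood at positions 12, 7, 6 and 9 by fold enrichment. The protein partners were mostly unmarked. Ldb1 and Ldb2, the adaptors that bridge LIM domains, had no start-site peak in any list, nor had Ssbp2, Ssbp3 and Ssbp4, which bind and stabilise these adaptors. Rlim, a ubiquitin ligase that targets them, had 438 bp of start-site coverage in replicate 2 of E14 only.

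The LIM-only proteins compete for the same adaptors and have no homeodomain, and their genes differed from one another. Lmo4 had no start-site peak in any list. Lmo1 and Lmo2 had one in all 4. Start-site coverage of Lmo1 was 9487 and 7175 bp at E14 and 1807 and 1326 bp at E17, and that of Lmo2 was 8390, 6526, 6699 and 3282 bp. Lmo3 had 5626 and 5359 bp at E14 and no peak in either E17 list, a pattern seen in 25.1% of the 6441 genes marked in both E14 lists.

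Pax and Dlx genes encode other families of transcription factors with roles in patterning. All 9 Pax genes and all 6 Dlx genes had a start-site peak in all 4 lists. Start-site coverage at E17 was a median of 97.7% of the E14 mean over the Pax genes and 93.3% over the Dlx genes, beside 98.6% for the LIM homeobox genes. Gene-body coverage was 58.2% over the Pax genes, 93.1% over the Dlx genes, 88.5% over the LIM homeobox genes and 38.5% over all 5895 genes with a body peak in both E14 lists. The widest peak at E17 was a median of 64.4% of the E14 mean over the Pax genes and 64.4% over the Dlx genes, beside 78.7% for the LIM homeobox genes. It was narrower in both E17 lists in 9 of 9 Pax genes and 4 of 6 Dlx genes, beside 7 of 10 LIM homeobox genes. Dlx5 and Dlx6 shared the same widest peak in both E14 lists and in replicate 1 of E17, so their values are not independent. The families were set side by side as counts and medians, and no difference between them was tested.

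**Figure D5:**
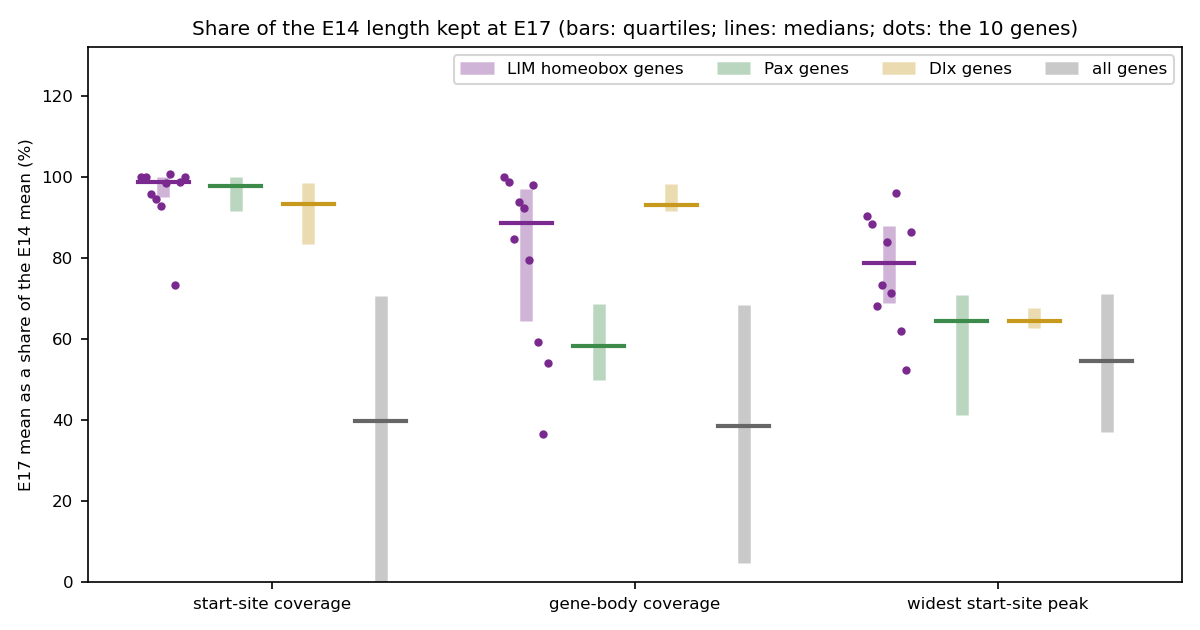
E17 mean as a percent of the E14 mean for start-site coverage, gene-body coverage and widest start-site peak, with bars for the quartiles and lines for the medians of each set, and dots for the 10 LIM homeobox genes. The dots of start-site coverage lie between 73.3 and 100.7%, above the median of 39.9% for all genes with a start-site peak in both E14 lists. The dots of gene-body coverage reach down to 36.5% at Lmx1a.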

How the data were processed

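H3K27me3 ChIP-seq peaks of 4 libraries were analysed, 2 at E14 and 2 at E17. Per the labels and the study's methods, the authors aligned reads to mm10 with Bowtie2 2.3.5.1 and called broad peaks in each library with MACS2 2.2.7.1 at a q-value threshold of 0.01. SAMtools 1.9 and deepTools 3.5.1 are also named in the submitters' processing notes. The control of the peak call is not given in the sources used here. Subsampling is stated for late-stage libraries, and whether it covers these is unclear. The labels and the methods differ on the culture medium, chromatin fragmentation and library kit. In the deposited lists MACS2 gave each peak a fold enrichment, which is a ratio to the local background, with its p-value and its q-value, both written as −log10. The fold ratio was used for ranks within a list, and the −log10 q-value to filter, rank or cut lists.

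Coverage and ranks were computed with Python 3.11.15, numpy 2.4.6 and pandas 2.3.3 over GENCODE M21 start sites ± 3000 bp and gene bodies. Exact permutation tests, two-sided, used scipy 1.17.1. Tested on simulated lists of 2000 genes, the steps recovered the planted start-site coverage and its direction in 100% of genes. The 10 genes, the related genes (Isl1, Isl2 and their partners), the Pax and Dlx families, the markers and the measures were chosen with earlier results of these data known. One marker is not reported here. Genes were named by that list, with the genes overlapping a start-site peak of the 10. The width and reach of peaks and the CpG of stretches were added after seeing the data. Alternatives were stricter q-values, equal list sizes, a minimum width, merged peaks, other windows and start sites, libraries left out and comparison within a replicate number.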

Additional observations from a re-analysis of the deposited data

How the results depend on the processing

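The count of genes with a start-site peak in all 4 lists stayed at 10 under all 13 alternatives, and the counts for gene-body coverage, widest peak and upstream reach stayed within 1.5 times their values, though not always with the same genes: with merged peaks Lhx2 left the gene-body count, and Lmx1a left and Lhx6 joined the upstream count. The lower percentile at E17, 9 genes, was 4 with lists cut to equal numbers of peaks and 1 with lists cut to equal covered length. By position from the top, close to the same measure as the cut to equal numbers, it was 4. The 3 genes with shorter start-site coverage became 5 with windows of 5000 bp, and 3 to 6 with 1 library left out, the highest without replicate 1 of E17. The median share of start-site coverage kept, 98.6%, was 100% with peaks within 3000 bp merged, 100% with windows of 1000 bp, 95.4% with windows of 5000 bp, and 97.2 to 100% with 1 library left out. No difference in start-site coverage reversed at the genes whose stages did not overlap, while at Lhx6 and Lhx9, where they overlapped, its sign differed between alternatives. Replicate numbers are shared by the stages, but nothing states that they mark a shared batch, and the differences between replicates of E14 and of E17 had a correlation of 0.139 over 9083 genes. With the replicate number as a block, comparing E17 with E14 within each number, 3 genes had shorter start-site coverage, 7 shorter gene-body coverage and 10 a lower percentile, and the median share kept was 99.3%. The depth of these libraries cannot be read from the lists, and the part of depth in the shorter E17 lists was not tested.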

Other observations

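Several noncoding genes lay under the start-site peaks of the LIM homeobox genes. Lhx1os, transcribed opposite to Lhx1, had 6025 bp of its start-site windows under peaks in every list. Gm27199 at Lhx5 and Gm27197 at Lhx2 each had 6001 bp in every list, AI606473 at Lhx8 had 7177 bp and C130021I20Rik at Lmx1b had 6139 bp. The remaining windows differed between the lists. Gm13584, which starts opposite to Lhx2, had 6001 and 4218 bp in the E14 lists and 3201 and 1062 bp in the E17 lists, and Gm27196 at Lhx3 had 4500, 4377, 4102 and 3574 bp. Gm13553, which shared the Lhx3 peak in 3 lists, had 4074, 3972, 4167 and 3647 bp, and Gm27953, which shared an Lhx6 peak in 1 list, had 3266, 2693, 2760 and 1923 bp. These genes share peaks with the LIM homeobox genes, so their values are not independent of them.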
